A study of Mus musculus with 39 samples.

Results

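The miRNAs described here are 8 that are abundant in fibroblasts and other mesenchymal cells: mmu-miR-143, mmu-miR-145, mmu-miR-199a-3p, mmu-miR-199a-5p, mmu-miR-214, mmu-miR-21, mmu-miR-22 and mmu-miR-31, written mir-143 and so on below. They were taken by name from the 650 miRNAs on the arrays, with earlier results of these data known. Of the 8, 7 reached detection on 2 or more arrays in some group and were tested, and mir-145 was not. The levels came from 39 Agilent 1-colour miRNA arrays, 3 for each of 13 groups. The cells were TCL-1, a mouse embryonic stem cell (ESC) line. Undifferentiated ESCs formed the first group. The other 12 groups were cells in RPMI 1640 with B27 and sodium butyrate, given no factor (control), Wnt3a at 50 ng/ml, Activin A at 100 ng/ml, or the same doses of both (Activin A plus Wnt3a), for 1, 3 or 5 days. The study used this culture to direct ESCs towards definitive endoderm and asked what Wnt3a adds to Activin A. All groups thus come from 1 ESC line, and the labels do not say whether the 3 replicates were separate cultures, so the p-values measure only the spread between these samples, which may be technical.

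How the ESCs were kept is given because these miRNAs are abundant in fibroblasts. According to the study's methods they grew on mouse embryonic fibroblast (MEF) feeders with LIF, and before differentiation they were left briefly on gelatin to remove the feeders and then plated on collagen overnight. Fibroblasts were therefore in the culture in which the ESCs were maintained. Whether any of their RNA remained in a sample, and how much, was not measured.

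MiRNAs pair with target mRNAs mainly through the seed, bases 2 to 8 from the 5′ end, and lower their stability or translation. Mir-199a and mir-214 are processed from a shared transcript, Dnm3os, that is prominent in embryonic mesenchyme. Mir-143 and mir-145 form a cluster typical of smooth muscle and fibroblasts. Mir-21, inside Vmp1, and mir-22 are expressed in most differentiated tissues and are high in fibroblasts, and mir-31 is found in fibroblasts, muscle and epithelia.

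The mature sequences are shown because the seeds show which members could share targets and which relatives an array probe could not tell apart. RefSeq on GRCm38.p6 held 6 of the 8 members, and seeds are in capitals.
mir-199a-5p: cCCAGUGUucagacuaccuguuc
mir-199a-3p: aCAGUAGUcugcacauugguua
mir-214: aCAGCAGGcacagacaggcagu
mir-21: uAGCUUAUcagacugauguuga
mir-22: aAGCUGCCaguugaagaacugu
mir-31: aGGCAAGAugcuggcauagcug
These 6 sequences had 6 different seeds. The mature mir-199a-3p sequence was identical to that of mir-199b-3p, so its signal can come from either. Outside the set, the seed of mir-214 was shared with mir-761 and that of mir-21 with mir-21c. The arms of mir-199a lie at chr1:162217844-162217866 (5p) and chr1:162217883-162217904 (3p) on the plus strand in Mir199a-2, and again on the minus strand of chromosome 9 in Mir199a-1, within Dnm2, at chr9:21496537-21496559 and chr9:21496498-21496519. Mir-214 lies at chr1:162223438-162223459, and its hairpin is 5444 bases from that of Mir199a-2, both inside Dnm3os. Mir-21 lies at chr11:86584120-86584141 on the minus strand, mir-22 at chr11:75463772-75463793 on the plus strand within Mir22hg, and mir-31 at chr4:88910614-88910635 on the minus strand.

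Each miRNA's signal is the background-subtracted sum over its probes in intensity units of the array, and its level is that signal after quantile normalization across the 39 arrays, on the log2 scale with a floor of 1. Between 183 and 375 miRNAs were detected per array, fewer in ESCs and at day 1 (183 to 249) than later (254 to 375). The miRNAs of the mir-290 cluster, which define mouse ESCs, were detected on all 3 ESC arrays for 9 of 11, and their summed normalized signal was 35800 to 36360 there. 3 features of the arrays bear on the results. The first replicate of Wnt3a at day 5 stood apart from the other 2, and day 5 values are given with and without it. In the authors' processed matrix 18 of 39 columns are exchanged between the treatment with Activin A alone and that with both factors, compared with the scanner output. The groups here follow the scanner output, which assignment is right is not settled, and if it is the other, each difference between these treatments changes sign. Each result of Activin A alone against control or over time would then belong to both factors, and the reverse. The arrays lay on 5 slides, and values within a slide or with slide as a block are given where they bear on a result. They were scanned on 2 dates: day 5 and both factors at day 3 on the later, all others on the earlier. Slide and scan date thus changed from day 3 to 5 in control, Wnt3a and Activin A, and from day 1 to 3 with both factors. At day 3 they also set both factors apart from all other cultures. In these comparisons slide and scan date cannot be told apart from time or treatment.

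Detection alone separated the set into kinds. Mir-21, mir-22 and mir-31 were detected on all 39 arrays. Mir-199a-3p was missing on only 2 arrays. Mir-199a-5p and mir-214 were detected on all 15 arrays of ESCs and day 1, on 0 of 12 at day 3, and on 7 and 3 of 12 at day 5. Mir-143 was detected on none of the ESC or day 3 arrays, on 9 of 12 at day 1 and on 7 of 12 at day 5. Mir-145 was detected on 2 of 39 arrays, at signals of 6.67 in Wnt3a replicate 1 and 6.05 in Activin A replicate 2, both at day 5, and is not described further. The lowest level at which an array detected any miRNA was 3.62 to 5.10 in ESCs and at day 1 and at most 3.49 later, so the arrays of day 3 detected lower levels than those on which these miRNAs had been measured before.

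**Figure D1:**
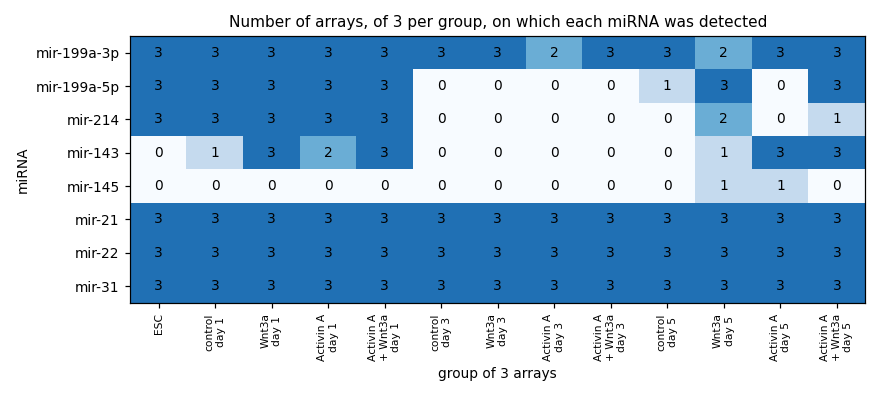
Number of arrays, of 3 in each group (columns), on which the scanner software detected each of the 8 miRNAs (rows). Mir-199a-5p and mir-214 read 3 in ESCs and throughout day 1, 0 throughout day 3, and up to 3 again at day 5, while mir-21, mir-22 and mir-31 read 3 everywhere.

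All 7 tested members differed among the 13 groups in limma's F-test, with adjusted p from 1.23e-31 for mir-199a-5p to 1.65e-07 for mir-143, but so did 88.5% of the 373 miRNAs tested, so this count is near the background.

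The miRNAs of the mir-199a and mir-214 transcript were present before differentiation began. In the 3 ESC samples the mir-199a-3p signal was 118, 136 and 139, that of mir-199a-5p 42.1, 38.3 and 43.5, and that of mir-214 24.0, 18.6 and 22.2. After 1 day without factors the mir-199a-3p signal was 296, 365 and 333, that of mir-199a-5p 57.4, 84.8 and 62.5, and that of mir-214 26.8, 49.8 and 30.9. Every day 1 control array was above every ESC array for all 3 miRNAs, and all 6 arrays lay on 1 slide. On the normalized scale mir-199a-5p was 0.64 ± 0.12 (log2, SE) higher at day 1 (adjusted p = 0.000138 in limma, n = 3 per group), which is under 2-fold. Mir-214 was 0.56 ± 0.24 higher (adjusted p = 0.0908). Mir-199a-3p was 1.33 ± 0.58 higher, or 2.51-fold (adjusted p = 0.0923), a value that rests on the spread of all 39 arrays. Without the Wnt3a day 5 array that stood apart its adjusted p was 0.000612, and with only the 6 arrays compared 0.0019. By the rule used for a call, an adjusted p under 0.05 and a difference over 2-fold, 0 of 7 members were called at day 1 against ESCs, where 16.6% of all miRNAs were; 2 of 7, mir-199a-5p and mir-22, passed the adjusted p alone, against 30.3% of all.

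All 3 treatments at day 1 gave levels close to those of the control. Mir-199a-5p signals were 96.4 to 123 with Wnt3a, 69.1 to 110 with Activin A and 99.0 to 116 with both, against 57.4 to 84.8 in control. Mir-214 signals were 52.4 to 67.9, 39.3 to 57.2 and 59.7 to 64.7, against 26.8 to 49.8. Normalized, the differences from control were 0.28, 0.25 and 0.26 for mir-199a-5p and 0.21, 0.22 and 0.34 for mir-214, and of these the value of mir-214 in Activin A plus Wnt3a passed the adjusted p (0.0203), though not with slide as a block. Mir-199a-3p lay 0.14 to 0.21 below control and did not pass. Of the 7 members 0 were called in each treatment at day 1, where 4.17% (Wnt3a), 0% (Activin A) and 5.42% (both) of 240 miRNAs were called. On the adjusted p alone 1, 0 and 2 of 7 passed, against 20%, 3.33% and 25% of all.

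Between day 1 and day 3 the 3 miRNAs fell in every culture. The mir-199a-3p signal in control was 27.01, 15.9 and 27.7 at day 3, below all day 1 and all ESC arrays, and mir-199a-5p and mir-214 were on no array of day 3. Mir-199a-3p fell by 4.94 ± 0.58 on the log2 scale in control (adjusted p = 1.8e-08). The changes in the treatments were -4.51 for Wnt3a, -6.83 for Activin A and -6.12 for both. Since nothing was measured at day 3, the fall of mir-199a-5p is a lower bound. Mir-199a-5p was at least 27.7-fold lower in control (adjusted p = 3.95e-26). It was at least 61.4-fold, 37.1-fold and 50.98-fold lower with Wnt3a, Activin A and both. The p beside such a bound tests levels with undetected arrays at the floor, which have no spread, and not the bound itself. Mir-214 was at least 14.5-fold lower in control (adjusted p = 2.84e-17) and at least 30.5-fold, 19.0-fold and 28.1-fold lower in the treatments. In bulk RNA fewer cells of a type and less of the miRNA per cell cannot be told apart. Control at day 3 was below ESCs too, by -3.61 on the log2 scale for mir-199a-3p, and mir-199a-5p was at least 17.8-fold and mir-214 at least 9.84-fold lower.

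With mir-21 and mir-22, described below, these 3 made 5 of 7 members called lower in control from day 1 to 3, where 17.2% of the 373 miRNAs were called lower; 6 of 7 passed the adjusted p alone, against 63.5% of all. The median difference of the 7 was -2.53, against 0.50 over all miRNAs tested. In the treatments 7 of 7 were called lower with Wnt3a (14.5% of all), 6 of 7 with Activin A (15% of all; mir-31 fell by less than 2-fold) and 7 of 7 with Activin A plus Wnt3a (13.7% of all). Without normalization the fall of mir-21 in each treatment, and that of mir-31 with both factors, no longer passed.

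At day 3 mir-199a-3p was the member of this cluster that could still be compared between treatments. Its signal was 32.8, 32.2 and 38.0 with Wnt3a, 7.88, undetected and 10.4 with Activin A, and 11.3, 8.22 and 18.8 with Activin A plus Wnt3a, against 15.9 to 27.7 in control. The Wnt3a arrays were above control and the Activin A arrays below it, and those with both factors overlapped control in signal but not in normalized level. Relative to control mir-199a-3p was 2.10 ± 0.49 lower with Activin A (adjusted p = 0.00485), and 2.03 lower among the arrays of the same slide. With both factors it was 1.36 ± 0.49 lower (adjusted p = 0.0356), a call that was lost when any 1 of its own 3 arrays, control replicate 1 or control replicate 3 was left out (-1.52 to -1.14 over all arrays left out), and all arrays of this group lay on a slide with no other array of day 3, so treatment and slide cannot be told apart there. With Wnt3a it was 0.29 ± 0.49 higher (adjusted p = 0.694). Of the 4 members tested at day 3 the calls were 0, 1 and 1 for Wnt3a, Activin A and both, where 3.07%, 19% and 20.2% of 326 miRNAs were called. On the adjusted p alone 2, 4 and 4 passed, against 35%, 56.4% and 59.5% of all.

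At day 5 mir-199a-5p was again on all arrays of both treatments with Wnt3a. Mir-199a-5p signals were 14.5, 10.9 and 11.5 with both factors and 6.03, 21.9 and 12.1 with Wnt3a, while it was on 1 of 3 control arrays, at 7.18, and on none with Activin A. Mir-199a-3p signals were 69.3, 58.9 and 55.7 with both, undetected, 73.7 and 60.5 with Wnt3a, 28.5, 27.6 and 25.9 with Activin A, and 36.7, 37.7 and 40.04 in control. For mir-199a-3p all arrays with both factors were above control and all Activin A arrays below it, and the undetected array was the Wnt3a replicate that stood apart. Mir-214 was on 1 of 3 arrays with both factors, at 11.9, and on 2 with Wnt3a, at 7.85 and 6.78, and on none in the other cultures. These day 5 signals were low: for mir-199a-5p and mir-214 none exceeded 21.9, against 38.3 or more for mir-199a-5p in ESCs.

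On the normalized scale mir-199a-5p was 1.88 ± 0.19 higher with Activin A plus Wnt3a than in control at day 5 (adjusted p = 4.01e-05), and at least 3.73-fold higher than with Activin A (adjusted p = 0.00029); within the slide shared by both groups, where Activin A had 1 array, the difference was 1.90. With Wnt3a it was 0.79 ± 0.19 higher than control (adjusted p = 0.0397), and 1.00 (adjusted p = 0.00182) without the array that stood apart. All cultures with Wnt3a lay on another slide than control at day 5. With slide as a block the value for both factors stayed at 1.88 (adjusted p = 0.00793) and that for Wnt3a did not pass. Only the Activin A arrays link these slides, and mir-199a-5p was undetected on all of them. The block therefore estimated no slide effect and cannot separate slide from treatment here. With a floor of 8 neither value passed (0.02 for both factors). When each of its probes stood in for the sum, both factors were above control by 1.88 and 0.59. Above Activin A they were by 1.90 and 0.59, so the bound of 3.73-fold holds for the sum and not for each probe. With Wnt3a the probes were 0.36 and 0 above control, against 0.79 for the sum. In the columns of the authors' matrix as named, mir-199a-5p with both factors was 0.26 below control and 2.06 below Activin A, since there the arrays are exchanged. Mir-199a-3p differed from control by -0.99, -0.80 and 0.80 with Wnt3a, Activin A and both (adjusted p = 0.521, 0.55 and 0.521), all with an SE of 0.88. Without the Wnt3a array that stood apart these were 0.31, -0.80 and 0.80, the first at an adjusted p of 0.0321, and mir-199a-3p was 1.61 higher with both factors than with Activin A (adjusted p = 9.19e-06), so 1 array decided whether mir-199a-3p passed at day 5.

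From day 3 to 5 within Activin A plus Wnt3a, mir-199a-3p rose by 2.29 ± 0.58 (adjusted p = 0.006). Mir-199a-5p rose by 1.90 with undetected arrays at the floor (adjusted p = 1.15e-12), by 1.90 and 0.59 on its single probes, and by at least 2.16-fold for the sum. With mir-143 these made 3 of 7 members called higher, where 4.02% of 373 miRNAs were. Day 3 and day 5 of this treatment lay on different slides. With slide as a block mir-199a-3p (2.08, adjusted p = 0.477) and mir-143 (3.01, adjusted p = 0.272) did not pass. Mir-199a-5p did (1.90, adjusted p = 3.96e-06), but its slide effect again came from Activin A arrays on which it was undetected. For mir-199a-5p the block therefore cannot separate slide from time. In control mir-199a-3p changed by 0.13 (95% confidence interval -1.07 to 1.32). The rise of mir-199a-5p in this treatment exceeded that in control by 1.88 (adjusted p = 1.4e-09), and that of mir-199a-3p by 2.16 (adjusted p = 0.0496, lost in 33 of 39 fits that left out an array). Mir-199a-5p also rose with Wnt3a, by 0.81 (adjusted p = 3.53e-06) or at least 1.21-fold.

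**Figure D2:**
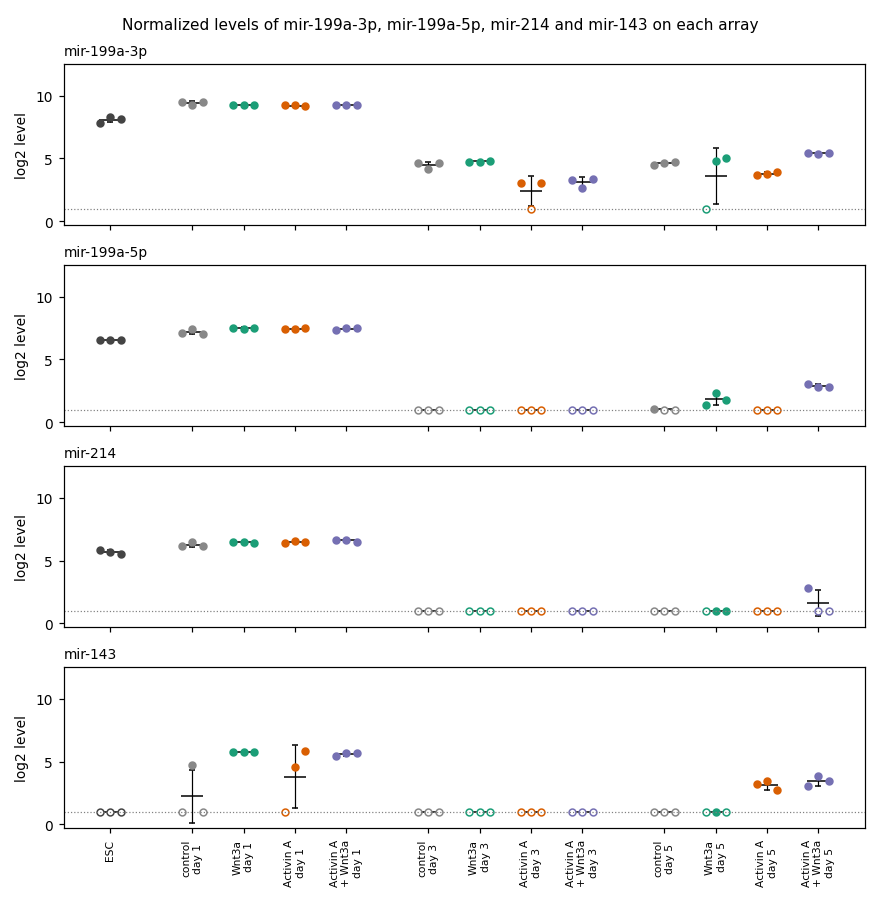
Normalized log2 level (y axis) of 4 miRNAs on each of 39 arrays, grouped along the x axis by ESCs and by treatment at days 1, 3 and 5; filled points were detected, open points were not and sit at the floor of 1 (dotted line), where a few detected values also lie, and bars show the mean and SD of 3 arrays. Mir-199a-3p drops from above 9 at day 1 to under 5 at day 3, mir-199a-5p and mir-214 drop to the floor, and mir-199a-5p and mir-143 return at day 5 in Activin A plus Wnt3a.

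Mir-143, which is used as a marker of smooth muscle and fibroblasts, followed another course. It was on no ESC array. At day 1 its signals were 27.9, 38.1 and 31.3 with Wnt3a and 18.2, 25.4 and 31.6 with Activin A plus Wnt3a, with Activin A it was undetected, 7.56 and 33.0, and in control it was on replicate 2 alone, at 11.4. Every array with Wnt3a was thus above every control array at day 1. Against control the differences were 3.53 (Wnt3a), 1.58 (Activin A) and 3.35 (both), each with an SE of 1.29, and none passed (adjusted p = 0.0834, 0.659 and 0.0896). Without control replicate 2 the values with Wnt3a and with both were 4.77 (adjusted p = 0.0252) and 4.58 (adjusted p = 0.0274), and without Activin A replicate 1 they also passed (adjusted p = 0.0308 and 0.0309). Against ESCs mir-143 was at least 2.15-fold higher with Wnt3a and at least 1.90-fold higher with both. All arrays with Wnt3a at day 1 lay on another slide than control, and the Activin A arrays on both. Activin A replicate 3, on the slide of the Wnt3a arrays, had the 33.0, and replicates 1 and 2, on the slide of control, the undetected and the 7.56. Within the slide of control Activin A was 0.57 above control, and within the other slide Activin A plus Wnt3a differed from the 1 Activin A array by -0.25. With slide as a block, which rests on that 1 array, mir-143 was 0.50 above control with Wnt3a (adjusted p = 0.975) and 0.32 above it with both (adjusted p = 0.971).

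Mir-143 was on no array at day 3, at least 18.7-fold, 2.98-fold and 13.8-fold below day 1 with Wnt3a, Activin A and both. At day 5 its signals were 22.7, 23.3 and 11.7 with Activin A and 14.1, 23.4 and 19.7 with Activin A plus Wnt3a. It was on 1 Wnt3a array, at 12.9, and on no control array. That Wnt3a signal, like both of mir-214 with Wnt3a at day 5, was at the floor of 1 after normalization, on arrays that detected 352 and 375 miRNAs. All 6 arrays with Activin A were above all 6 without it on the normalized scale. Over control mir-143 was up at least 4.35-fold in Activin A and 5.43-fold in both, at adjusted p of 3.49e-05 and 1.14e-05. Within the slide that Activin A shared with control the difference was 2.31, and with slide as a block that for both factors was 3.01 (adjusted p = 0.000273). When each of its 2 probes stood in for the sum the differences were 0.51 and 1.49 with Activin A and 1.46 and 1.95 with both, against 2.12 and 2.44 for the sum. Both calls were lost with a floor of 8 in place of 2 (log2 differences of 0.21 and 0.44). The 2 treatments with Activin A differed by 0.32 (95% confidence interval -0.15 to 0.79). Mir-145, its cluster partner, stayed undetected on all but the 2 arrays named above. The rise from day 3 to 5 with both factors was at least 3.14-fold (adjusted p = 0.024, lost in 5 of 39 fits that left out an array, all of them arrays of the 2 groups compared), and it was also lost with slide as a block, with quantile normalization of log2 signals and with a floor of 8.

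Mir-21, which is raised in many stressed and growing cells, was present throughout. Its signal in control was 1710, 1862 and 1735 at day 1, 973, 1046 and 898 at day 3 and 1216, 1244 and 1246 at day 5, after 1572, 1564 and 1666 in ESCs. Day 3 was below the other times on all 3 control arrays. Without normalization its fall from day 1 to 3 passed in control but in none of the treatments. Normalized, mir-21 fell by 1.62 ± 0.15 from day 1 to 3 in control (adjusted p = 1.17e-10) and by 1.04, 1.32 and 1.31 with Wnt3a, Activin A and both. It then rose by 0.87 ± 0.15 from day 3 to 5 in control (adjusted p = 1.59e-05), but this rise depended on the scaling: it was 0.24 and -0.05 with the signals scaled to the 75th percentile of miRNAs detected on all arrays and of all miRNAs. At day 3 mir-21 exceeded control by 0.63 ± 0.10 with Wnt3a (adjusted p = 0.00126), by 0.35 with Activin A and by 0.31 with both, the latter at adjusted p of 0.0148 and 0.0235, all under 2-fold. When each of its probes stood in for the sum these were 0.26 and 0.27 with Wnt3a, 0.36 and 0.46 with Activin A, and 0.36 and 0.78 with both. For both factors at day 3 treatment and slide cannot be told apart.

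At day 5 no direction can be given for mir-21. Its signals were 2671, 2594 and 2488 with Activin A and 2436, 2177 and 1956 with both factors, all above the control's 1216 to 1246. After quantile normalization it was nevertheless 0.37 and 0.15 below control (adjusted p = 0.239 and 0.659). Scaled to the 75th percentile of miRNAs detected on all arrays or of all miRNAs the differences were 0.63 and 0.85 with Activin A, and 0.53 and 0.76 with both. When each of its probes stood in for the sum they were 0.70 and 0.72 with Activin A, and 0.70 and 0.83 with both. Wnt3a replicate 1 had a signal of 595, against 2709 and 1669 on the other 2 arrays of its group.

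Mir-22, processed from its own noncoding host transcript, stepped down once, between day 1 and day 3. Its signal was 219, 192 and 213.8 in ESCs, 261, 292 and 279 in control at day 1, 91.5, 102 and 93.4 at day 3 and 106, 102 and 103 at day 5. All control arrays at days 3 and 5 were below all ESC arrays, and those at day 1 were above them. Normalized, mir-22 was 0.37 ± 0.10 higher at day 1 than in ESCs (adjusted p = 0.00309) and fell by 2.53 ± 0.10 from day 1 to 3 in control (adjusted p = 2.61e-19), with falls of 2.34, 2.26 and 2.29 in the treatments. From day 3 to 5 it changed by -0.10 in control (95% confidence interval -0.29 to 0.10). At day 3 it was above control by 0.31, 0.13 and 0.33 in the order Wnt3a, Activin A, both (adjusted p = 0.00163, 0.0494 and 0.000379). At day 5 it was above control by 0.45 (adjusted p = 0.138), 0.24 (adjusted p = 0.279) and 0.51 (adjusted p = 0.0211). The value with both at day 5 did not pass with slide as a block, under either scaling to the 75th percentile or in 4 of 12 fits that left out an array (both factors replicate 2 or 3, control replicate 2 or 3), and that with Activin A at day 3 did not with slide as a block or in 10 of 12 such fits. Activin A plus Wnt3a exceeded Activin A by 0.22 at day 1 (adjusted p = 0.0414) and 0.19 at day 3 (adjusted p = 0.0212). With the first mir-22 probe in place of the sum these became 0.72 and 0.33. The second probe gave -0.16 and -0.09, so the direction depended on the probe. The day 1 difference became -0.03 and -0.11 under the 2 scalings to the 75th percentile. It did not pass with slide as a block, and passed in only 2 of 12 fits that left out an array. The day 3 difference passed in 8 of 12 such fits, but not when scaled to the 75th percentile of all miRNAs. These 2 treatments shared no slide at day 3, so treatment and slide cannot be told apart.

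Mir-31 was higher in the cultures with Activin A at days 3 and 5 than in those without. At day 3 its signal was 33.2, 22.1 and 34.8 in control and 36.3, 36.0 and 38.7 with Wnt3a, against 58.7, 47.5 and 68.3 with Activin A and 62.1, 49.8 and 63.3 with both. At day 5 it was 23.0, 27.3 and 24.8 in control and 22.4, 36.9 and 33.3 with Wnt3a, against 71.8, 64.0 and 67.2 with Activin A and 71.8, 59.8 and 55.7 with both. All arrays with Activin A were above all arrays without it on both days. Normalized, mir-31 exceeded control at day 3 by 0.81 ± 0.10 in Activin A cultures (adjusted p = 9.06e-05) and by 0.71 ± 0.10 where both were given (adjusted p = 0.000186). At day 5 it was 1.63 ± 0.13 (adjusted p = 1.06e-05) and 1.64 ± 0.13 (adjusted p = 7.91e-06) above control, or 3.09-fold and 3.12-fold. Among the arrays of a shared slide the Activin A differences were 0.83 at day 3 and 1.602 at day 5, and with slide as a block that for both factors at day 5 was 1.57 (adjusted p = 0.00283). For both factors at day 3, which shared no slide with control, treatment and slide cannot be told apart. With Wnt3a alone mir-31 differed from control by 0.00 at day 3 (95% confidence interval -0.22 to 0.23) and 0.02 at day 5 (-0.28 to 0.31), and adding Wnt3a to Activin A made a difference of -0.10 at day 3 (-0.33 to 0.12) and 0.02 at day 5 (-0.28 to 0.31).

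Over time the mir-31 signal in control changed little, from 21.98 to 35.5 in ESCs and 16.2 to 33.9 at day 1 to 22.1 to 34.8 at day 3 and 23.0 to 27.3 at day 5. Its normalized level fell by 0.99 from day 1 to 3 (adjusted p = 5.21e-08) and by 1.09 from day 3 to 5 (adjusted p = 2.9e-08), while without normalization these differences were 0.39 and -0.24, a scale on which the median of the miRNAs detected on all arrays rose by 1.11 from day 1 to 3. The fall from day 3 to 5 was the only call among 7 members in control, where 8.31% of 373 miRNAs were called lower (on the adjusted p alone 2 of 7 passed, against 41.6% of all). With Wnt3a the only call was again mir-31 (-1.08, where 12.3% of all were called lower), and with Activin A there were 0 (6.7% of all), mir-143 missing at an adjusted p of 0.0522. Neither of these mir-31 falls passed without normalization or when scaled to the 75th percentile of miRNAs detected on all arrays. In both groups day 3 and day 5 shared no slide. Relative to the change in control, the normalized fall of mir-31 from day 3 to 5 was smaller by 0.81 and 0.93 for Activin A without and with Wnt3a (adjusted p = 0.00101 and 0.000176), which no longer passed under either scaling to the 75th percentile or without normalization (0.34, 0.43 and 0.47 with Activin A). At day 1 mir-31 was above control by 0.65 ± 0.11 with Wnt3a (adjusted p = 0.00453), by 0.34 in Activin A cultures (adjusted p = 0.155) and by 0.73 in those given both (adjusted p = 0.00181), but with slide as a block the first and the last did not pass.

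**Figure D3:**
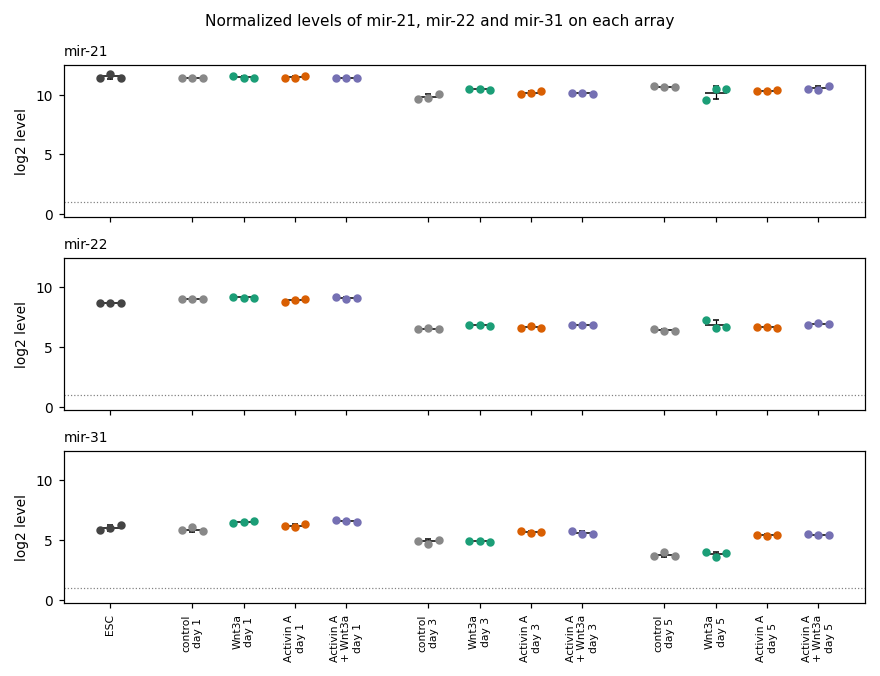
Normalized log2 level (y axis) of mir-21, mir-22 and mir-31 on each of 39 arrays, grouped along the x axis by ESCs and by treatment at days 1, 3 and 5, with the mean and SD of 3 arrays; the floor of 1 is dotted. Mir-22 steps down by about 2.5 between day 1 and day 3 in control, and mir-31 stays above 5.3 in the groups with Activin A at days 3 and 5 while control falls below 4.1 at day 5.

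At day 5 the members called against control were thus 0 of 7 with Wnt3a, 2 with Activin A (mir-31 and mir-143) and 3 with both factors (these and mir-199a-5p), all higher; 3.8%, 25% and 30.4% of 368 miRNAs were called, and 2.72%, 13.6% and 15.5% were called higher. On the adjusted p alone 1, 2 and 4 of 7 passed, against 8.15%, 37.5% and 46.2% of all. Activin A plus Wnt3a differed from Activin A in 0 of 7 members at day 1 (0.833% of all), 0 of 4 at day 3 (3.99%) and 1 of 7 at day 5, mir-199a-5p (2.72%), and on the adjusted p alone 1 member passed on each day (10.4%, 29.4% and 4.89% of all). Compared with the change in control, that of 2, 0 and 1 of 7 members differed from day 1 to 3 with Wnt3a, Activin A and both on the adjusted p alone (9.38%, 15% and 21.4% of all), and of 2, 2 and 3 from day 3 to 5 (4.83%, 20.9% and 28.4% of all). The comparisons with control on a day share the control arrays.

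**Figure D4:**
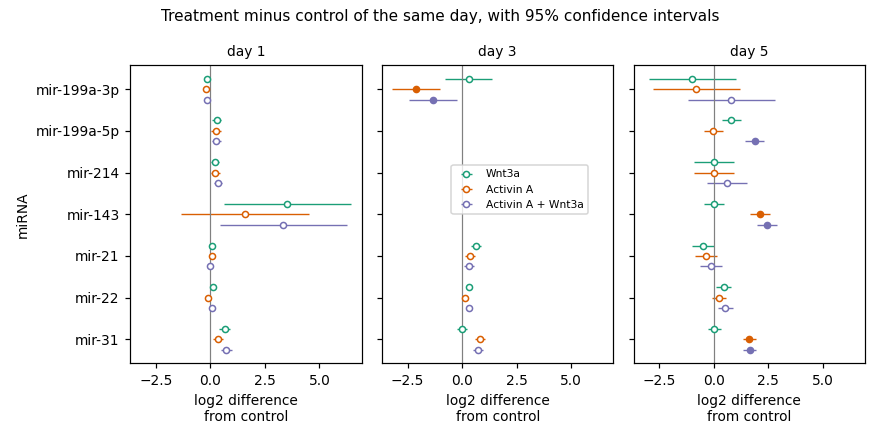
Log2 difference (x axis) of each treatment from the control of the same day for the members tested at days 1, 3 and 5 (rows), with the 95% confidence interval; filled points were called. At day 5 mir-31 and mir-143 lie between 1.6 and 2.5 for both treatments with Activin A and near 0 for Wnt3a, and mir-199a-5p is filled for Activin A plus Wnt3a only, with wide intervals for mir-199a-3p.

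The members did not all share a pattern. Over the 13 group means mir-199a-5p and mir-214 had a Pearson correlation of 0.99, mir-199a-5p and mir-199a-3p 0.97, and mir-214 and mir-22 0.99. Mir-143 correlated with the other members at 0.60 to 0.67 and mir-31 at 0.64 to 0.76. Over the 15 arrays of ESCs and day 1 alone, mir-199a-5p and mir-214 still correlated at 0.94, and mir-21 at -0.28 to -0.06 with the others. These are descriptions: the groups share a line and a time course, and undetected values sit together at the floor. Of 140 other miRNAs detected on all arrays, mir-34b-5p was among the 2 most like mir-199a-3p (0.91), mir-199a-5p (0.96), mir-214 (0.97) and mir-22 (0.97). The other most alike were mir-125b-5p for mir-199a-3p (0.93), mir-181d for mir-199a-5p (0.95) and mir-29a for mir-214 (0.96). Mir-21 was most like mir-181d (0.93) and mir-125b-5p (0.90), mir-22 also like mir-29c (0.97), and mir-143 like mir-23a (0.74) and mir-221 (0.73). Mir-31 was most like mir-294* (0.98) and mir-293 (0.96), both of the mir-290 cluster of ESCs.

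Other miRNAs known from fibroblasts moved both ways between day 1 and day 3, with more called lower than higher in every culture. The list held 20 on the array, among them the star strands of the members, the mir-23, mir-24 and mir-27 group, mir-29a and mir-29b, mir-99a, mir-100, mir-125b-5p, mir-10b, mir-152, mir-221 and mir-222, and 16 were tested. The summed normalized signal of the 20 was 4251 to 4280 in ESCs, 5178 to 6791 at day 1, 878 to 1063 at day 3 in control and Wnt3a, and 1784 to 2104 at day 3 in the cultures with Activin A. In control 9 of the 16 were called lower and 4 higher from day 1 to 3 (17.2% and 32.2% of all), with a median of -1.46 against 0.50 over all miRNAs. Mir-199b*, the other strand of the mir-199b hairpin, was at least 15.5-fold lower (adjusted p = 6.22e-14), mir-125b-5p fell by 3.96 (adjusted p = 4.66e-25) and mir-29b by 3.85 (adjusted p = 1.04e-12). With Wnt3a 11 were called lower and 3 higher (14.5% and 29.5% of all). With Activin A these were 5 and 4 (15% and 27.3%), and with both 5 and 2 (13.7% and 27.3%). The medians with Wnt3a, Activin A and both were -1.77, -0.76 and -0.68, against 0.20, 0.24 and 0.13 over all miRNAs. From ESCs to control at day 1, 0 of 16 were called (16.6% of all) and the median was 0.35, against 0 over all miRNAs.

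Against control the list moved both ways with Activin A. At day 3 it held 2 higher and 0 lower with Wnt3a, 9 and 4 with Activin A and 6 and 3 with both, where 3.07% and 0%, 12.6% and 6.44%, and 12.9% and 7.36% of all miRNAs were. At day 5 it held 0 and 0, 8 and 4, and 8 and 3, where 2.72% and 1.09%, 13.6% and 11.4%, and 15.5% and 14.9% of all were. At day 5 mir-100 and mir-99a were at least 43.6-fold and 36.4-fold lower with Activin A, and at least 35.5-fold and 29.6-fold lower with both. Mir-125b-5p was 2.55 lower with Activin A (adjusted p = 4.51e-07), and mir-27a was 2.28 higher with both (adjusted p = 0.0176). Adding Wnt3a to Activin A gave 2 calls among the 16 at day 5, where 2.72% of all miRNAs were called. They were mir-199b*, 1.89 higher (adjusted p = 0.0357), and mir-10b, 1.83 higher (adjusted p = 0.00771). Mir-199b* was on all arrays of ESCs and day 1. At day 3 it was on 0 of 3 arrays in control, Activin A and both, and on 2 of 3 with Wnt3a. It was on all arrays of day 5, at a level of 3.41 ± 0.23 (SD, n = 3) with both factors at day 5, against 2.04 ± 0.20 in control.

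Markers of other cell types were summed in the same way. The 5 muscle miRNAs tested for, of which mir-1, mir-206 and mir-499 were on no array, had a summed normalized signal of 0 up to day 3 and of at most 6.18 at day 5. The sum of the mir-290 cluster was 35750 to 37010 at day 1 and 7912 to 8615 in control at day 5, against 26500 to 29450 with Activin A and 31890 to 33980 with both. The epithelial mir-200 family and mir-141 summed to 117 to 118 in control at day 5, against 1219 to 1278 in the cultures with Activin A. The 4 neural miRNAs, mir-124, mir-9, mir-9* and mir-219, had sums in control of 38.4 to 52.2 (day 1), 181 to 244 (day 3) and 747 to 980 (day 5), and of at most 87.5 in the cultures with Activin A at the last time. The 5 of the primed epiblast summed to 822 to 889 in control at day 1 and 5822 to 6141 at day 3. The 6 of blood summed to 158 to 184 in the cultures with Wnt3a at day 1, against 54.9 to 59.7 in control, and did not exceed 18.3 in any culture of day 3; mir-142-3p, mir-142-5p, mir-144 and mir-451 were on no array at either time. Their part in the course of the 8 miRNAs, and that of the feeder fibroblasts, was not tested.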

How the data were processed

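MiRNA signals of 13 groups of 3 arrays were analysed, each array placed in its group by its label. The scanner files hold intensity values, which the authors obtained with Agilent Feature Extraction (10.7.3.1 per the file headers, 9.5.3.1 in the submitters' processing notes): the background was subtracted, the probes of each of 650 miRNAs were summed, and a miRNA not detected was set to 0.1. The authors' files also hold other values, the detection flags given by that software. The authors' matrix holds log2 values after a floor and quantile normalization, and was used as an alternative only.

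Here quantile normalization over the 39 arrays was followed by a floor of 2 and log2. Testing with limma 3.58.1 in R 4.3.3 took in any miRNA found on 2 of 3 arrays in some group fitted. Times were compared in 1 fit of 39 arrays and treatments in a fit of the 12 arrays from their day, with Benjamini-Hochberg adjustment over all miRNAs tested. Calls required a difference above 2-fold at an adjusted p below 0.05. Where 1 group lacked a miRNA on all 3 arrays, its fold is a bound, taken from the lowest level that each such array detected. The p-value beside it tests the levels with undetected arrays at the floor, and not the bound. The number of arrays limits the precision, and low signals were hardest to measure in ESCs and at day 1.

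The 8 members and the other lists were chosen with earlier results of these data known. Named beside the members are, by rule, the 2 miRNAs most correlated with each over group means and the 3 of the fibroblast list with the largest called difference in a comparison; mir-199b* was described further after its values were seen. Comparisons with ESCs other than that of control at day 1 were added after the data had been seen. Replicate numbers were not used to pair samples: of 54 pairs of same-numbered arrays 19 correlated above 0.1 and the median was -0.03. The fit was tested on simulated data. Alternatives were other scalings, normexp with an offset of 50, the authors' matrix as named and with columns matched to arrays (added later), floors of 1 and 8, other filters, slide and replicate blocks, the methods' plain tests, other fits, and each array left out in turn.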

Additional observations from a re-analysis of the deposited data

Results flagged for a closer look

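The changes below differed between a treatment and control of the same days by a test of the difference itself (limma, adjusted over 373 miRNAs). Between 4.83% and 28.4% of all miRNAs passed the same test, depending on the treatment and days. From day 1 to 3, mir-143 changed by -3.53 relative to control with Wnt3a (adjusted p = 0.0313) and by -3.35 with Activin A plus Wnt3a (adjusted p = 0.0213), after being on 1 of 3 control arrays at day 1. The value with Wnt3a no longer passed in 11 of 39 fits that left out an array, and that with both factors in 2, those without control replicate 1 or 3 of day 1. With slide as a block the mir-143 value with Wnt3a was -0.50 and did not pass. Mir-31 changed by -0.65 relative to control with Wnt3a over the same days (adjusted p = 0.0192), and still passed in 35 of 39 fits that left out an array. With slide as a block this mir-31 value was -0.39 (adjusted p = 0.776). It also did not pass without normalization or when scaled to the 75th percentile of miRNAs detected on all arrays.

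From day 3 to 5, mir-199a-5p changed relative to control by 0.79 with Wnt3a (adjusted p = 0.00413) and by 1.88 with Activin A plus Wnt3a (adjusted p = 1.4e-09). Neither value passed with a floor of 8, and with slide as a block that with Wnt3a had an adjusted p of 0.227. Mir-199a-3p changed by 2.16 with Activin A plus Wnt3a (adjusted p = 0.0496). Mir-31 changed by 0.81 with Activin A (adjusted p = 0.00101) and by 0.93 with both factors (adjusted p = 0.000176). Mir-21 changed by -1.13 with Wnt3a (adjusted p = 0.000822) and by -0.71 with Activin A (adjusted p = 0.013), where the direction of the latter depended on the scaling and the former did not pass under either scaling to the 75th percentile, without normalization or with slide as a block.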

How the results depend on the processing

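The 69 differences of single members that passed the adjusted p were recomputed 1074 times under other settings: 954 kept direction and side of the threshold, 106 no longer passed and 14 reversed. Leaving out 1 array at a time gave 2070 values, of which 1963 kept both, 107 no longer passed and 0 reversed. The falls of mir-199a-3p, mir-199a-5p, mir-214 and mir-22 from day 1 to 3 and the higher mir-31 with Activin A at days 3 and 5 kept both under every setting that could be fitted. Signals near the lowest detected level limit mir-143, mir-199a-5p and mir-214 at day 5.

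The counts of calls were, as reported, 6 in untreated cells, 0, 2 and 5 against control at days 1, 3 and 5, 1 on adding Wnt3a to Activin A, 24 over time within treatments, and 10 changes that differed from control. Leaving out 1 array gave 6 to 8, 0 to 2, 1 to 2, 5 to 6, 1 to 2, 22 to 27 and 6 to 19 in that order, and 7 to 7 for the F-test. Without replicate 1 of Wnt3a at day 5 there were 6 at day 5, 2 between the Activin A treatments, 27 over time and 19 changes; there were 8 in untreated cells without control replicate 1 or 3 of day 1, and 2 at day 1 without Activin A replicate 1 or control replicate 2. Day 1 counts were 2 without normalization, 1 with a floor of 8, 1 without a filter, 3 on the adjusted p alone and 2 in 1 fit of all arrays. Day 3 counts were 1 without normalization, with a floor of 1, without a filter, with the methods' plain tests and in 1 fit of all arrays, 0 with normexp and 10 on the adjusted p alone. Day 5 counts were 0 with normexp and 2 with a floor of 8. Between the Activin A treatments they were 0 with normexp, 0 with a floor of 8 and 3 on the adjusted p alone. Untreated cells had 10 on the adjusted p alone, and normexp left 12 over time. The 10 changes became 6 when scaled to the 75th percentile of all miRNAs, 5 without normalization and 1 with slide as a block.

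The values that reversed were these. Mir-22 with both factors against Activin A was -0.035 and -0.11 at day 1 when scaled to the 75th percentile of detected and of all miRNAs, and in the matrix as named -0.25 at day 1 and -0.19 at day 3. The mir-21 change from day 3 to 5 with Activin A relative to control was 0.21, 0.30 and 0.34 under these scalings and without normalization, and its change in control was -0.051 at the 75th percentile of all miRNAs. Without normalization mir-31 rose by 0.39 in control and 0.56 with Activin A from day 1 to 3; there the median of all miRNAs detected throughout shifted by 0.83 to 1.15, against -0.34 to -0.45 at the 75th percentile of all miRNAs. In the matrix as named, mir-199a-5p with both factors was -0.26 against control, -2.06 against Activin A and -0.093 against day 3, and -0.21 for the last relative to control. The cause of other changes was not tested.

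With the replicate number as a block the counts were 6, 0, 2, 5, 1, 25 and 9 in the order above, and 4 differences of single members no longer passed. Slide as a fixed block could not be fitted to the changes from day 3 to 5 in control, Wnt3a and Activin A, from day 1 to 3 with both factors, to both factors at day 3 against control or Activin A, or to the changes with both factors relative to control. A fit of only the groups compared was not run for the F-test or for changes relative to control.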
